A study of Mus musculus with 4 samples.

Results

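The comparison set fibroblasts labelled Gadd45-/-, the gene being Gadd45a in the series' design text, against wild-type fibroblasts, both carrying Terc, the gene for the RNA template of telomerase. Messenger RNA of primary fibroblasts grown from minced C57BL/6 mouse embryos was sequenced in 1 library for each genotype. The series holds 4 libraries, and the other two came from the third generation (G3) of Terc-/- mice and from G3 mice lacking both genes. Genes were chosen by rule: symbols of short RNA, genes on the X and Y chromosomes, and LOC symbols at 0 in one library were left out, and a mean of at least 1 FPKM over the 2 libraries was required. The library labelled Gadd45-/- is called the knockout-labelled library. The rule kept 10877 of the 23235 symbols in each table. FPKM, fragments scaled to transcript length and to the library's mapped fragments, is the unit of every level. Where a pair of levels is given without names, the wild-type value comes first. Each difference is that of log2(FPKM + 1), the knockout-labelled library minus wild type, and this scale understates differences of low genes. There were no replicates, so no difference has a test or an error, and each is one between 2 cultures. The labels give no allele, embryo number, embryonic age, passage or sex for either culture.

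Gadd45a encodes a small nuclear stress protein. It is induced by DNA damage, partly through p53, binds the kinase Map3k4 to activate p38 and JNK signalling, binds the cell cycle inhibitor p21 and the sliding clamp PCNA, and has been linked to DNA demethylation through excision repair. Fibroblasts of an embryo keep a memory of body position in their Hox genes and secrete matrix, growth factor binding proteins and cytokines. They are also a mixed population, since the whole minced embryo is put into culture.

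Both libraries were about equally deep, with an estimated 19200000 fragments for wild type and 19900000 for the knockout-labelled library. The summed FPKM of 13 fibroblast markers, such as type I collagen and vimentin, was 13027 in wild type and 13832 in the knockout-labelled library, and all 13 passed the level filter. The libraries differed in sex. Y-linked Eif2s3y was at 23.1 FPKM in the knockout-labelled library, whereas Xist, which coats the silent X chromosome, was at 24.0 FPKM in wild type and at 0.15 FPKM in that library. Sex and genotype label therefore cannot be told apart in any difference between these 2 libraries, although genes on the sex chromosomes were left out.

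At the Gadd45a locus a transcript other than Gadd45a itself followed the labels. Gadd45a messenger RNA was listed at 22.9 FPKM in wild type and 33.9 in the knockout-labelled library, against the label, so the genotype is given as labelled throughout. E230016M11Rik, a long non-coding RNA gene that starts inside Gadd45a on the opposite strand, was listed at 4.57 FPKM in wild type but at 0.032 FPKM in the knockout-labelled library. Those values stand for about 155 fragments and 1.13 fragments over its full spliced length. In the G3 libraries it was listed at 5.63 FPKM with the Terc-/- label and at 0 with the label of the double deficiency, while Gadd45a was at 31.4 and 45.1 FPKM. The non-coding RNA was thus present in both libraries whose label has Gadd45a and close to 0 or at 0 in both whose label lacks it. Gadd45a was higher in each library labelled as lacking it than in its partner, with log2 differences of 0.54 and 0.51.

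In the GENCODE annotation of GRCm38, Gadd45a has 4 exons on the minus strand of chromosome 6 and a spliced length of 1223 nt. E230016M11Rik has 7 exons and a spliced length of 1764 nt on the plus strand. Its exon 1, of 337 nt, covers all 238 nt of Gadd45a exon 3. Which strand the counting used is not given in the sources used here, and without strand, fragments from this shared stretch cannot be assigned to one of the genes. The tables hold 1 value a gene, so the exons of Gadd45a could not be looked at one by one, and the value does not show whether the transcript carries a deletion. The start windows of both genes are printed because they place the RNA that followed the labels inside the targeted gene. They are the RefSeq windows for GRCm38.p6, 250 bases before to 50 bases after each annotated start, with the bases from the start onwards in capitals.
E230016M11Rik, chr6:67036349-67036648, plus strand: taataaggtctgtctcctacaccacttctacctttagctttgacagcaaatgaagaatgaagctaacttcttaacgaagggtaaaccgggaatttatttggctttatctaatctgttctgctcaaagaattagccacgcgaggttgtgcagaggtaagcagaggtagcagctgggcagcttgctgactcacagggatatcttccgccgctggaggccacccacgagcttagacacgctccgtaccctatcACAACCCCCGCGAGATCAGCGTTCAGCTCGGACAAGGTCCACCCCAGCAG
Gadd45a, chr6:67037358-67037657, minus strand: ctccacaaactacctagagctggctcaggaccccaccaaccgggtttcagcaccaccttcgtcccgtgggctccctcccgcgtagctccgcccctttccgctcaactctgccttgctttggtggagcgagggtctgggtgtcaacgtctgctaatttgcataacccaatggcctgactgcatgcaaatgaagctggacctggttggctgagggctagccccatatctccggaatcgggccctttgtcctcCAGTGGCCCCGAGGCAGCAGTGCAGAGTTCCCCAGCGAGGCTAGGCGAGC
The whole E230016M11Rik window lies within the Gadd45a gene, overlaps none of its exons, and falls between exon 3 and exon 4.

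**Figure D1:**
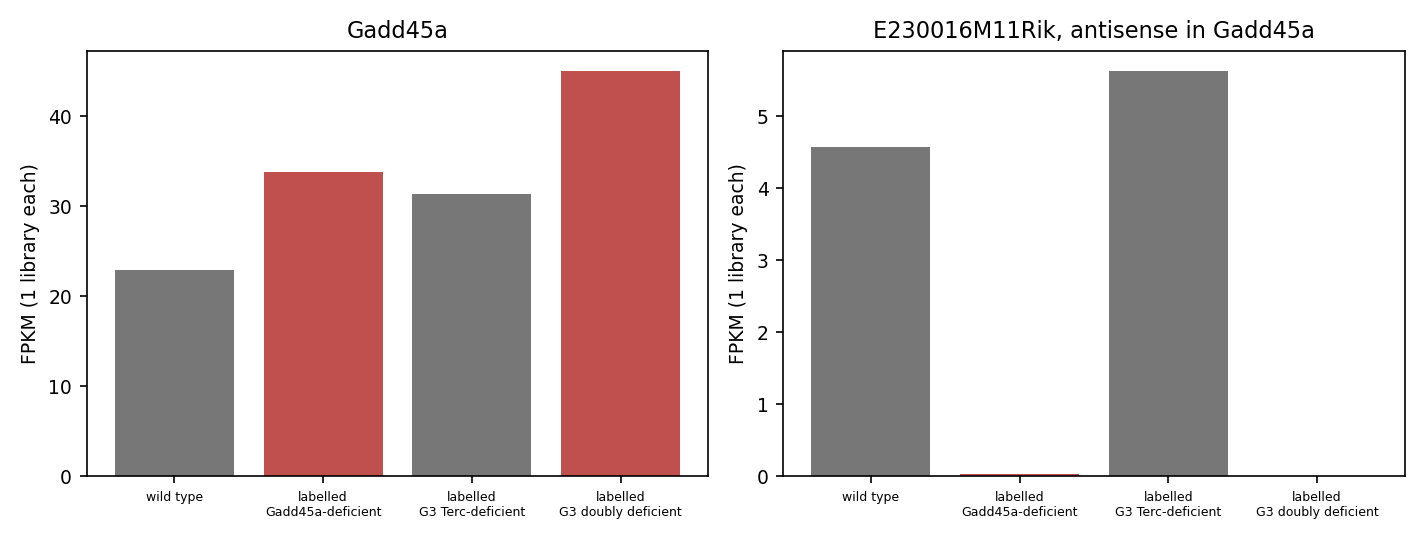
FPKM of Gadd45a (left) and of the antisense non-coding RNA E230016M11Rik (right) in the 4 libraries, 1 bar a library, with libraries labelled Gadd45a-deficient in red. E230016M11Rik stands at 4.57 and 5.63 FPKM in the grey bars and at 0.032 and 0 in the red ones, while Gadd45a is higher in each red bar than in the grey bar of the same Terc label.

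The genes around the locus did not share this difference. Of the 20 kept genes nearest to Gadd45a by order on the chromosome, a set looked at after the values of E230016M11Rik were seen, the other 19 had differences from -0.37 to 0.98 with a median of -0.05, and none reached 1 in either direction. Among the relatives of Gadd45a, Gadd45b was at 26.6 and 28.4 FPKM and Gadd45g at 118 and 147 FPKM in wild type and then in the knockout-labelled library. The list of Gadd45 partners and the p38 pathway includes Gadd45a itself. Of its 24 measured members, 15 had a positive difference, beside 42.1% of all kept genes, and 9 a negative one, with a median of 0.06. Besides Gadd45a, the members of that list farthest from 0 included the p38-activating kinase Map2k6 (0.77 and 1.75 FPKM) and the p38 delta kinase Mapk13 (3.68 and 6.26 FPKM). The phosphatase Dusp1, which switches p38 off (29.7 and 42.9 FPKM), was another.

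Few genes differed by much between the 2 libraries. A gene was counted as past the size rule when its difference was at least 1 in either direction, which is 2-fold on FPKM + 1. By this rule 51 genes (0.469%) were counted, 32 of them higher (0.294%) and 19 lower (0.175%) in the knockout-labelled library. The differences of all kept genes had a median of -0.03 and quartiles of -0.12 and 0.07. On the lower side, Hoxb13 lay just inside the rule, at -1.06386. Just outside it lay Nov, at 0.996557, and Lst1, at -0.994206.

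Most genes past the rule were of low level. Of the 51, 29 had a mean under 5 FPKM, 38 a mean under 10, and 6 a mean of 20 or more, out of 3767 kept genes at that level. The scatter narrowed with level: the median absolute difference was 0.15 in genes of 1 to 2 FPKM and 0.08 in genes of 20 to 50 FPKM. Reference annotation called 42 of the 51 protein coding, 5 long non-coding RNA and 4 transcribed pseudogenes. The abundant genes included the secreted signalling protein Wisp2, the insulin-like growth factor binding proteins Igfbp2 and Igfbp5, thrombomodulin (Thbd) and the extracellular superoxide dismutase Sod3.

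**Figure D2:**
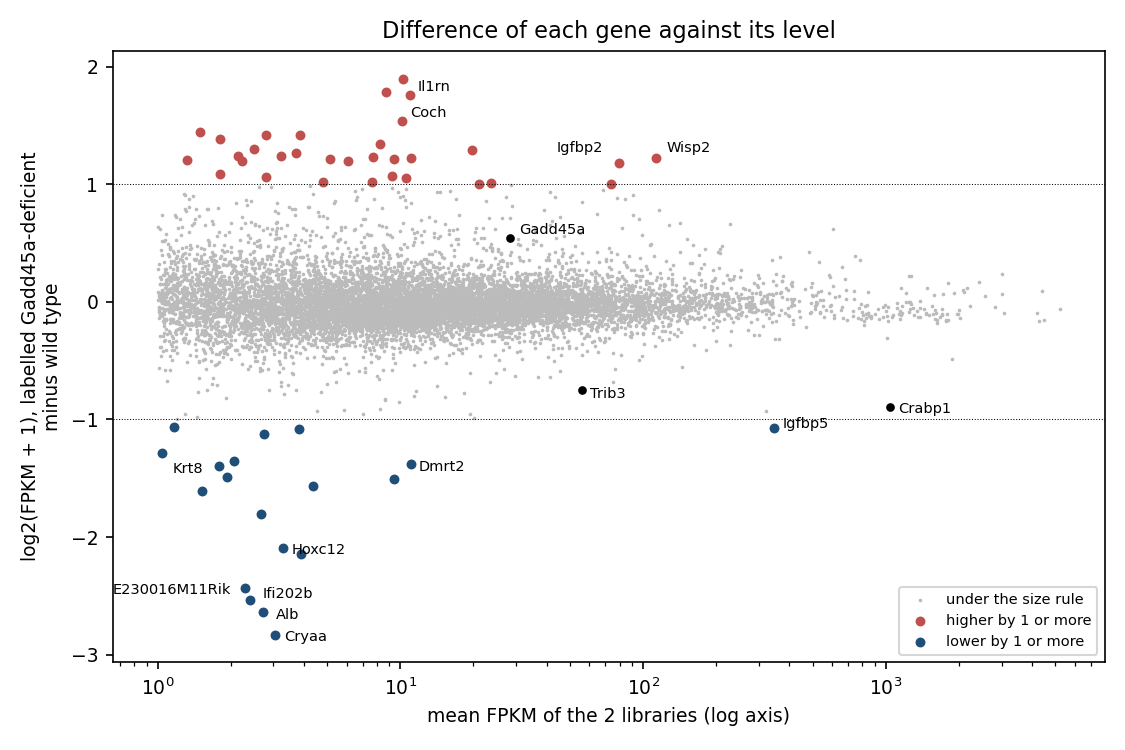
Difference of log2(FPKM + 1), knockout-labelled library minus wild type, against the mean FPKM of the 2 libraries on a log axis, 1 point a gene kept. Red and blue points are the 32 higher and 19 lower genes past the dotted lines at 1 and -1, and black points are named genes between the lines. The lower genes reach farther from 0 than the higher ones, and each of them but Igfbp5 has a mean under 20 FPKM.

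Among the 15 largest positive differences were those of several secreted proteins. Il1rn, the antagonist of the interleukin-1 receptor, had 4.44 FPKM in wild type and 17.4 in the knockout-labelled library. Coch, a secreted protein of the matrix, had 4.72 and 15.6 FPKM in the same order. Gzme, a granzyme family protease, had 1.07 and 4.52 FPKM, and Mcpt8, a serine protease known from basophils, had 4.19 and 11.2 FPKM. All of these genes lay below 20 FPKM in both libraries.

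Genes known from other tissues were also among them. Gjb2, the gap junction protein connexin 26, had 11.01 and 28.4 FPKM in wild type and then in the knockout-labelled library. Sprr2k, of the small proline-rich proteins that harden skin cells, had 4.24 and 12.3 FPKM. Rarres1, a retinoic acid responder, had 1.02 and 3.98 FPKM, and 1500015O10Rik, which encodes a secreted peptide also named augurin, had 1.65 and 6.07 FPKM. The homeobox gene Msx1, a factor of limb and craniofacial mesenchyme, had 1.51 and 4.93 FPKM. The remaining genes of the 15 largest positive differences were U90926 (1.77 and 5.66 FPKM), 2400009B08Rik (0.34 and 2.66 FPKM), 1700021C14Rik (0.55 and 3.07 FPKM) and 2310010J17Rik (0.88 and 3.43 FPKM), whose functions are poorly known, and 2 genes with many processed copies. Those 2 are Ndufs5, a subunit of respiratory complex I (3.74 and 16.7 FPKM), and the ribosomal protein Rpl26 (3.39 and 14.1 FPKM). Fragments that match several copies cannot be assigned to one of them with certainty, so both values are uncertain.

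The largest negative differences included genes of liver, lens, simple epithelium and posterior body regions. Cryaa, the lens crystallin alpha A, was at 6.11 FPKM in wild type and was listed at 0 in the knockout-labelled library. Alb, serum albumin, was at 5.40 and 0.027 FPKM, and Ifi202b, an interferon-inducible DNA sensor family member with close relatives, was at 4.79 FPKM and was listed at 0. Cryaa and Ifi202b were also listed at 0 in both G3 libraries, so of the 4 libraries only wild type had them above 0. The posterior factor Hoxc12 had 5.93 and 0.63 FPKM. Dmrt2, a factor of somite patterning, had 16.4 and 5.68 FPKM, and Adcyap1r1, the receptor of the neuropeptide PACAP, had 7.01 and 1.71 FPKM. Krt8, a keratin of simple epithelia, had 3.04 and 0.53 FPKM. The others of the 15 were E230016M11Rik, the transferrin gene Trf, the long non-coding RNA symbols Gm19705 and AA465934, the histone gene Hist1h4m, and Gm7334, Pisd-ps1 and Apoo-ps. The pseudogene symbols among them have near-identical copies, so their values are uncertain.

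Among abundant genes, the binding proteins of insulin-like growth factors differed in opposite directions. These proteins hold the growth factors in the medium or matrix and set how much reaches the receptor. Igfbp2 had 48.1 FPKM in wild type and 111 in the knockout-labelled library, 2.30-fold higher. Igfbp4 had 30.0 and 56.7 FPKM, 1.89-fold higher, and did not reach the rule. Igfbp5 had 470 and 223 FPKM, 2.105-fold lower. Igf2, the main ligand in the embryo, had 209 and 177 FPKM. Over the 17 measured members of the list of insulin-like growth factor genes, 9 differences were positive and 8 negative, with a median of 0.05, so the members of the pathway shared no direction.

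Other abundant genes differed by 0.64 to 1.22 on the log2 scale in either direction. Wisp2, a secreted protein of the CCN family, had 67.6 and 159 FPKM in wild type and then in the knockout-labelled library. Thbd, an anticoagulant receptor of the cell surface, was at 15.3 and 31.8 FPKM, and Sod3 at 13.7 and 28.6 FPKM. In the other direction Crabp1, a retinoic acid binding protein, had 1355 and 728 FPKM. Tppp3, a marker of tendon sheath cells, was at 27.2 and 13.2 FPKM, and Lrrc15, a membrane protein of some fibroblasts, at 93.0 and 57.6 FPKM. The imprinted gene Peg3 had 45.3 and 28.7 FPKM. Its antisense partner Peg3as had 50.7 and 32.1 FPKM, and without strand the pair cannot be told apart.

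Cytokine, interferon and antigen presentation genes were mostly slightly higher in the knockout-labelled library. Of 21 measured chemokine and cytokine genes, 18 had a positive difference, beside 42.1% of all kept genes, and the median was 0.48. Il1rn was the single one of them past the rule. The neutrophil attractant Cxcl5 was at 9.42 FPKM in wild type and 18.9 in the knockout-labelled library, Cxcl1 at 2.75 and 5.58 FPKM, and Cx3cl1, a membrane-bound chemokine, at 3.54 and 7.22 FPKM. Tnfsf11, the ligand that drives osteoclast formation, had 2.24 and 4.68 FPKM. Feedback genes of NF-kB did not share this direction, with 6 positive and 10 negative differences and a median of -0.02, which became 0.0074 with size factors. Summed macrophage markers, which could carry cytokine RNA, were 7.42 and 10.4 FPKM, and their part in these differences was not tested.

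Interferon-stimulated genes, which encode antiviral proteins, had 23 positive and 3 negative differences among 26 measured members, beside 42.1% positive among all kept genes. The median was 0.29, with none past the rule. Bst2, which tethers budding viruses to the cell surface, had 59.1 and 109 FPKM. Psmb8, a subunit of the immunoproteasome, was at 2.51 and 5.94 FPKM, the antiviral Oasl2 at 1.08 and 2.30 FPKM, and the enzyme Usp18, which removes Isg15 from proteins, at 2.22 and 3.99 FPKM. Psmb8 lay just under the rule, with a difference of 0.98. Its difference was 1.01 with size factors or quantile normalization and 1.21 with a pseudocount of 0.1 FPKM. With that pseudocount Oasl2 had 1.02. Of 13 measured genes of class I antigen presentation, some of which are in both lists, 11 had a positive difference and the median was 0.33. H2-D1, a class I heavy chain, had 43.7 and 66.0 FPKM, but class I genes are alike in sequence and their values are uncertain.

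The interferon-stimulated response element is a pair of GAAA repeats bound by interferon regulatory factors. The motif of GAAA, any 2 bases and GAAA, searched on both strands of RefSeq promoter windows, was found in 11 of 22 windows (50%) of the 20 list members with a window, and in 3.44% of all 32851 windows. The window of Bst2 is shown as that of the abundant member with one of the largest differences. Its capitals mark 2 overlapping matches.
Bst2, GRCm38.p6, chr8:71537423-71537722, minus strand: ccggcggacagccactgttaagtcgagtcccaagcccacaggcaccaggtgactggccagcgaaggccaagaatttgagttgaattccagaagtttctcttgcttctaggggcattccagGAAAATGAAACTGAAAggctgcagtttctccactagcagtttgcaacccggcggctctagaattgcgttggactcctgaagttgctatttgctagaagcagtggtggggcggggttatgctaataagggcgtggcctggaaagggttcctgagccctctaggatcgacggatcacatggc

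Genes of the amino acid stress response were mostly slightly lower in the knockout-labelled library. Atf4 is a transcription factor made when amino acids run short or proteins misfold, and it switches on amino acid synthesis and transport. Of 28 measured members of the list, 26 had a negative difference, beside 57.8% of all kept genes, with a median of -0.30 and none past the rule. Trib3, a pseudokinase that restrains the response, had 70.2 FPKM in wild type and 41.5 in the knockout-labelled library. Chac1, which degrades glutathione, was at 36.4 and 23.1 FPKM, and the asparagine synthetase Asns at 142 and 114 FPKM. Atf4 itself had 258 and 200 FPKM. The exceptions were Cebpb (72.4 and 73.5 FPKM) and Nupr1 (144 and 153 FPKM).

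Related lists had negative medians of smaller size. Of 20 aminoacyl-tRNA synthetase genes, many of which Atf4 regulates, 19 had a negative difference, with a median of -0.18. Of 20 chaperone genes of the endoplasmic reticulum, which other stress sensors control, 8 were positive and 12 negative, with a median of -0.03 that became 0.0073 with size factors. Sterol synthesis genes had 20 negative differences among 21 measured members and a median of -0.20, and fatty acid synthesis genes had 14 among 14 and a median of -0.21. Mvd, an enzyme of the mevalonate pathway, was at 63.2 and 49.1 FPKM and the desaturase Scd1 at 72.0 and 55.2 FPKM. No member of these lists reached the size rule, and apart from the chaperones nearly every member of each had the same direction.

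The Atf4 binding element joins a C/EBP-type site to an ATF-type site. TGATGNAA, searched on both strands, was found in 9 of 30 promoter windows (30%) of the 24 members with a window, and in 3.97% of all windows. Chac1 and Asns are shown as a member with one of the largest differences and as the best known target, with the match in capitals. In Chac1 the match lies on the opposite strand.
Chac1, GRCm38.p6, chr2:119350992-119351291, plus strand: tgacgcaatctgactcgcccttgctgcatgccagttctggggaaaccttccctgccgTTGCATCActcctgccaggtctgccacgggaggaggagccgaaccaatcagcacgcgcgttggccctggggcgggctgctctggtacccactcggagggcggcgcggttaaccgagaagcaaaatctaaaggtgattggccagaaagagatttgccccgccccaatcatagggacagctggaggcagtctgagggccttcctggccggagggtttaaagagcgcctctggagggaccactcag
Asns, GRCm38.p6, chr6:7693160-7693459, minus strand: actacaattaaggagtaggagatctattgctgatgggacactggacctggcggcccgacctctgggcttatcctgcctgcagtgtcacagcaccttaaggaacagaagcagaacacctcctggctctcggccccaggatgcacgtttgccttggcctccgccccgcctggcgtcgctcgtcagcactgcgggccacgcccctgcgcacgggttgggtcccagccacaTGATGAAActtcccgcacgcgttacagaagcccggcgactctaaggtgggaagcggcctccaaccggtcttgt

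Matrix and contractile genes leaned towards higher values in the knockout-labelled library, with few large differences. Of 33 measured matrix glycoprotein genes, 25 had a positive difference, with a median of 0.19, and Coch was past the rule. Ltbp2, a protein of elastic microfibrils, was at 28.1 FPKM in wild type and 54.6 in the knockout-labelled library, Prelp at 6.68 and 13.2 FPKM, and Mgp, an inhibitor of calcification, at 109 and 174 FPKM. Collagen genes had 14 of 22 positive differences, against 42.1% of all kept genes. Their median of 0.07 was just below the upper quartile of all genes. The cartilage collagen Col10a1 (2.70 and 7.56 FPKM) was the one past the rule. Of 25 matrix proteases and inhibitors, 17 were positive, with a median of 0.16. The plasminogen activator Plau was at 18.7 and 35.6 FPKM.

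Of all kept genes, 42.1% had a positive difference, the share to set beside each count here. Of 23 contractile genes, 19 had a positive difference, with a median of 0.19. The smooth muscle regulator Cnn1 had 73.1 and 120 FPKM, whereas desmin (Des), an intermediate filament of muscle, had 25.9 and 12.9 FPKM. Among TGF-beta and BMP genes 21 of 27 were positive, with a median of 0.17 and none past the rule. The ligand Bmp4 was at 9.73 and 19.5 FPKM, the activin and BMP antagonist Fst at 10.6 and 21.3 FPKM, and the BMP target Id1 at 21.2 and 35.4 FPKM. Ligand, antagonist and target thus had the same direction, but they were picked by size as members farthest from 0. In the same list 6 members had a negative difference, the lowest at -0.34. Wnt genes had 10 positive and 15 negative differences, and the antagonist Sfrp1 (6.52 and 14.7 FPKM) was past the rule. The tendon factor Scx had 5.93 and 12.6 FPKM, opposite in direction to the tendon sheath marker Tppp3.

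**Figure D3:**
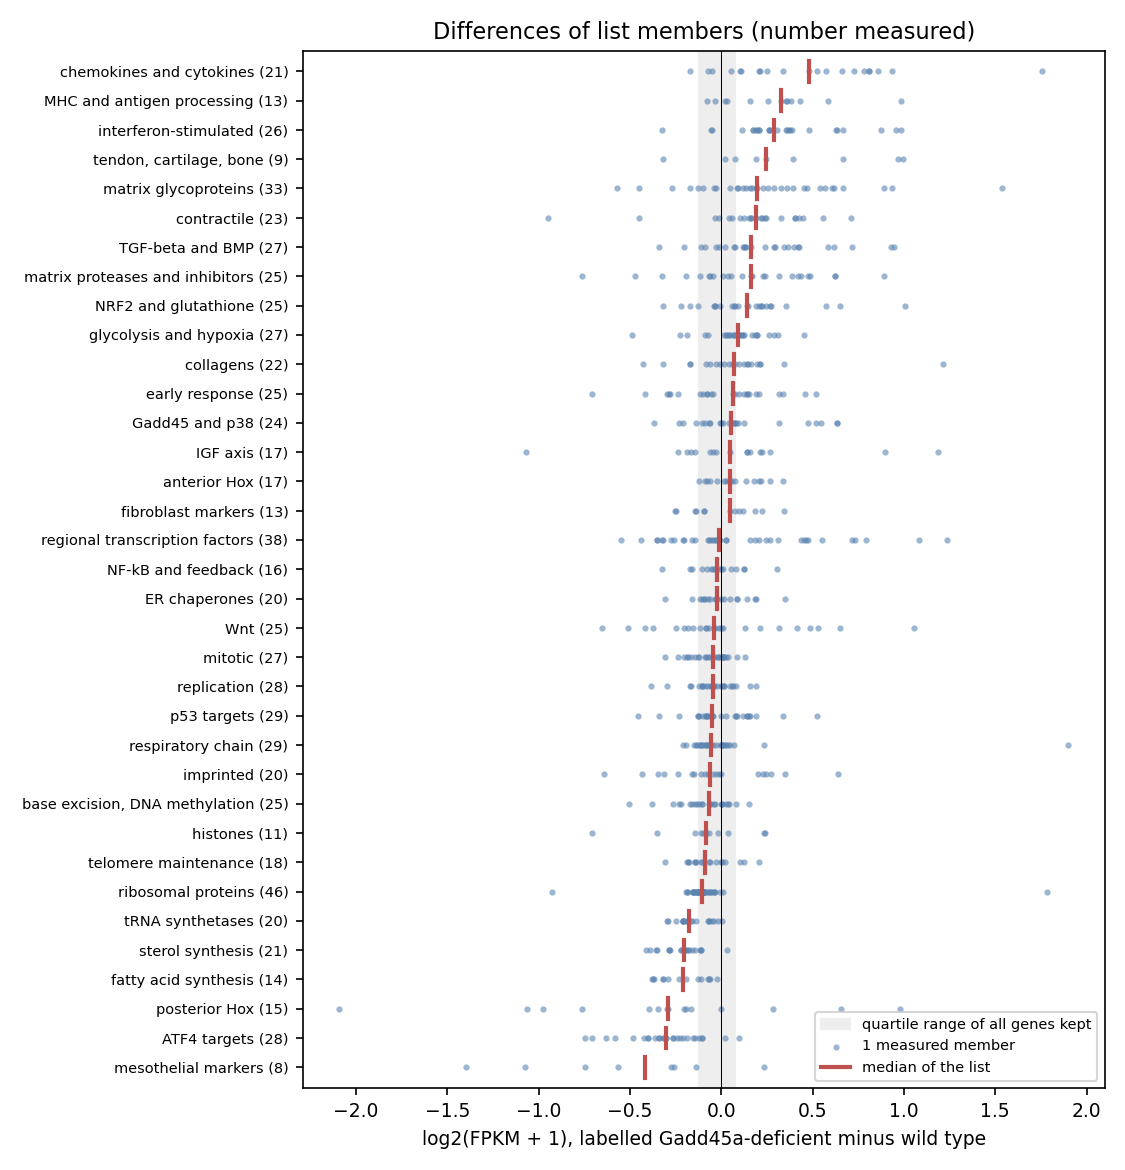
Differences of log2(FPKM + 1), knockout-labelled library minus wild type, for each measured member of the gene lists, 1 point a gene, with the list median as a red bar and the quartile range of all kept genes in grey. The chemokine list has the highest median, 0.48, and the mesothelial markers the lowest of those shown, -0.42, while p53 targets, mitotic and telomere genes lie at or near the grey band.

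Posterior Hox genes were mostly lower in the knockout-labelled library, with exceptions in the HoxC and HoxD clusters. Hox genes are expressed in nested domains along the body and limbs, and genes at the 5′ end of each cluster, with high numbers, mark posterior and distal regions. Of 15 measured posterior Hox genes, 12 had a negative difference, beside 57.8% of all kept genes, with a median of -0.29. The 4 posterior genes of the HoxC cluster from Hoxc10 to Hoxc13 were all lower in the knockout-labelled library: Hoxc10 was at 15.1 FPKM in wild type and 11.7 in that library, Hoxc11 at 6.19 and 3.24 FPKM, Hoxc12 at 5.93 and 0.63 FPKM, and Hoxc13 at 2.25 and 0.65 FPKM. Hoxc9 next to them was not, at 7.88 and 9.81 FPKM, and Hoxb13 was lower, at 1.94 and 0.41 FPKM. In the HoxD cluster some genes went the other way. Hoxd11 was at 1.65 and 4.22 FPKM and Hoxd13 at 5.13 and 8.66 FPKM, while Hoxd10 between Hoxd9 and Hoxd11 was lower, at 1.55 and 1.23 FPKM, and Hoxd9 was listed at 2.40 FPKM in both. HoxA genes differed less, as with Hoxa10 at 13.6 and 10.1 FPKM and Hoxa13 at 3.43 and 2.95 FPKM.

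Anterior Hox genes had 12 positive and 5 negative differences, beside 42.1% positive among all kept genes. Their median was 0.05, with none past the rule. Of 38 other regional factors, 18 were positive and 20 negative. The 4 farthest from 0 were positive, and all are factors of limb or facial mesenchyme, but they were picked by size. The list median was -0.01 and its lowest difference was -0.55. Pitx1, the hindlimb factor, had 5.09 and 9.54 FPKM. Barx1, of jaw and stomach mesenchyme, had 0.80 and 2.81 FPKM, and with Msx1 it was past the rule. The limb factor Lhx9 had 3.21 and 6.00 FPKM. The positional values describe 2 cultures of minced embryos, and the share of cells from each body region in them was not measured. In bulk RNA, fewer cells of a type and less RNA per cell cannot be told apart.

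**Figure D4:**
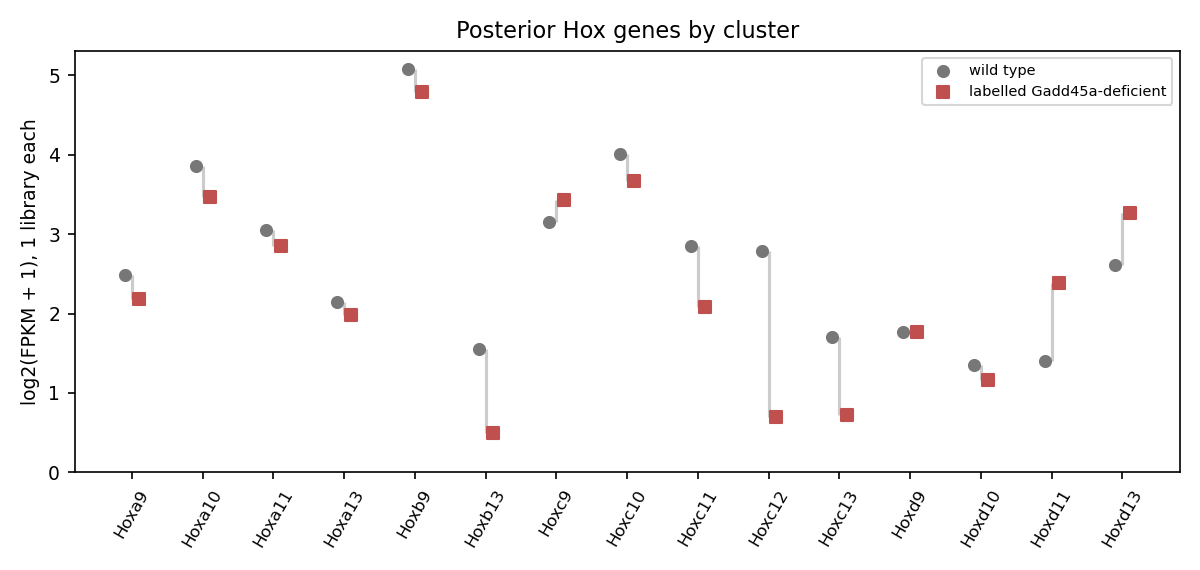
log2(FPKM + 1) of the 15 measured posterior Hox genes, ordered by cluster, in wild type (grey circles) and the knockout-labelled library (red squares), 1 library each. Hoxc10 to Hoxc13 and Hoxb13 lie lower in the knockout-labelled library, and Hoxd11 and Hoxd13 lie higher.

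Markers of a few other cell types differed between the 2 libraries. Of 14 hepatocyte markers, 13 were higher in wild type, the exception being Apob, and 3 passed the level filter. Their summed level was 18.9 FPKM in wild type and 2.30 in the knockout-labelled library, where 8 of the 14 were at 0, among them Ttr and Apoa1, against none in wild type. The sums were 35.8 FPKM in the G3 Terc-/- library and 5.32 in the G3 library of the double deficiency, but Trf carried most of the former, with 30.6 FPKM. Without Trf the 13 other markers summed to 17.0 and 2.11 FPKM in the Terc-proficient pair and to 5.18 and 2.52 FPKM in the G3 pair, where Alb was at 0.33 and 0.027 FPKM. The differences of Alb and Trf belong to this list, and the part of hepatocyte RNA in them was not tested. Of 8 mesothelial markers, Krt8 and Krt18 among them, 7 were lower in the knockout-labelled library, with a median of -0.42 and a summed level of 37.2 and 28.3 FPKM. In the G3 pair this list went against that direction, with 6 of 8 positive, a median of 0.66 and sums of 19.2 and 37.2 FPKM. Upk3b, of the mesothelial surface, was at 4.89 and 2.51 FPKM and the mesothelial factor Wt1 at 1.40 and 0.62 FPKM, whereas Krt19 went the other way at 12.0 and 14.3 FPKM. Other lens genes did not accompany Cryaa: of 15 lens markers, 10 were at 0 in wild type and 11 in the knockout-labelled library, and Cryaa alone passed the level filter. Of 14 epithelial markers, which share the keratins with the mesothelial list, 9 were higher in wild type and 4 in the knockout-labelled library, with sums of 21.5 and 17.1 FPKM. Skeletal muscle markers summed to 30.5 and 17.6 FPKM, and desmin carried the gap in the sum, since the 16 others summed to 4.65 and 4.66 FPKM. Those others include Mylpf, which went the other way at 0.65 and 1.73 FPKM. By count, 13 of the 17 were higher in wild type and 2 in the knockout-labelled library, mostly at low levels. There 6 were at 0, against 2 in wild type. Of 11 cardiac markers, 7 were higher in wild type and 2 in the knockout-labelled library, with sums of 31.6 and 21.9 FPKM. None of the 12 erythroid and 9 germ cell markers passed the filter.

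The lists closest to the known roles of Gadd45a differed little. Of all kept genes, 57.8% had a negative difference, the share to set beside each count here. Of 29 measured p53 targets, 12 were positive and 17 negative, with a median of -0.05 and none past the rule. The death receptor Fas, at 3.29 FPKM in wild type and 5.18 in the knockout-labelled library, lay highest, and the pro-apoptotic gene Bbc3, at 18.6 and 13.3 FPKM, lay lowest. Among base excision repair and DNA demethylation genes 8 of 25 were positive and 17 negative, with a median of -0.07. The glycosylase Neil1, which opens the repair of oxidised bases, had 3.87 and 2.43 FPKM. Telomere maintenance genes had 5 positive and 13 negative differences, all between -0.31 and 0.20. Mitotic genes had 9 positive and 18 negative differences with a median of -0.05, and Mki67, present in cycling cells, had 27.9 and 24.1 FPKM. Ribosomal protein genes had 44 of 46 negative differences with a median of -0.11, just above the lower quartile of all genes, -0.12.

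The same labelled contrast exists in the G3 libraries, which share no library with the pair above. There the difference was taken as the G3 library of the double deficiency minus the G3 Terc-/- library, and the 4 Y-linked genes were each at 0.097 FPKM or less in both of these libraries, so sex does not move with the label in that pair. Differences were wider in it: 5.14% of the same 10877 genes were past the rule, with quartiles of -0.26 and 0.19. Across genes the 2 differences had a Pearson correlation of -0.01 and a Spearman correlation of -0.02, with genes not being independent replicates. The signs were alike in 50.5% of all kept genes.

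Of the 51 genes past the rule in the Terc-proficient pair, 32 (62.7%) had the same sign in the G3 pair. Past the rule in both were 15, which is 29.4% of the 51 and 2.68% of the 559 past it in the G3 pair, and 10 of the 15 had the same direction. Lower in both were E230016M11Rik, the non-coding symbol Gm19705 and Trf. Higher in both were Il1rn, Gjb2, 1500015O10Rik, Gzme, Mcpt8, Sfrp1 and Pisd-ps3, the last of which was named for this count after its value was seen. Pisd-ps3 is a pseudogene symbol, and as with Pisd-ps1 its values are uncertain. Pisd-ps1 was lower in both pairs, with -1.81 and -0.98. Il1rn had 0.47 FPKM in the G3 Terc-/- library and 14.2 in the G3 library of the double deficiency. Gjb2 was at 0.069 and 8.59 FPKM there, and Sfrp1 at 36.5 and 189 FPKM.

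Of the 34 gene lists, 19 had medians of opposite sign in the 2 pairs and 15 of the same sign. The medians of the chemokine, antigen presentation and interferon-stimulated lists, positive in the Terc-proficient pair, were -1.30, -2.46 and -2.28 in the G3 pair. Those of the Atf4, sterol and fatty acid lists, negative in the first pair, were 0.35, 0.71 and 0.64. The mitotic list, near 0 in the first pair, had a median of 1.09. Among lists of the same sign, contractile genes had medians of 0.19 and 0.66, matrix glycoproteins 0.19 and 0.21, and posterior Hox genes -0.29 and -0.21. Many single posterior Hox genes nevertheless changed direction. Hoxc12 had -2.09 and 0.66, Hoxc13 -0.98 and 0.21, Hoxd11 0.98 and -1.80, and Hoxd13 0.66 and -0.85. Hoxa10, Hoxa11, Hoxa13, Hoxc11, Hoxd9 and Hoxd10 had the same sign in both pairs, and the other measured posterior Hox genes had opposite signs. With 1 library on each side, whether the 2 differences differ was not tested.

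**Figure D5:**
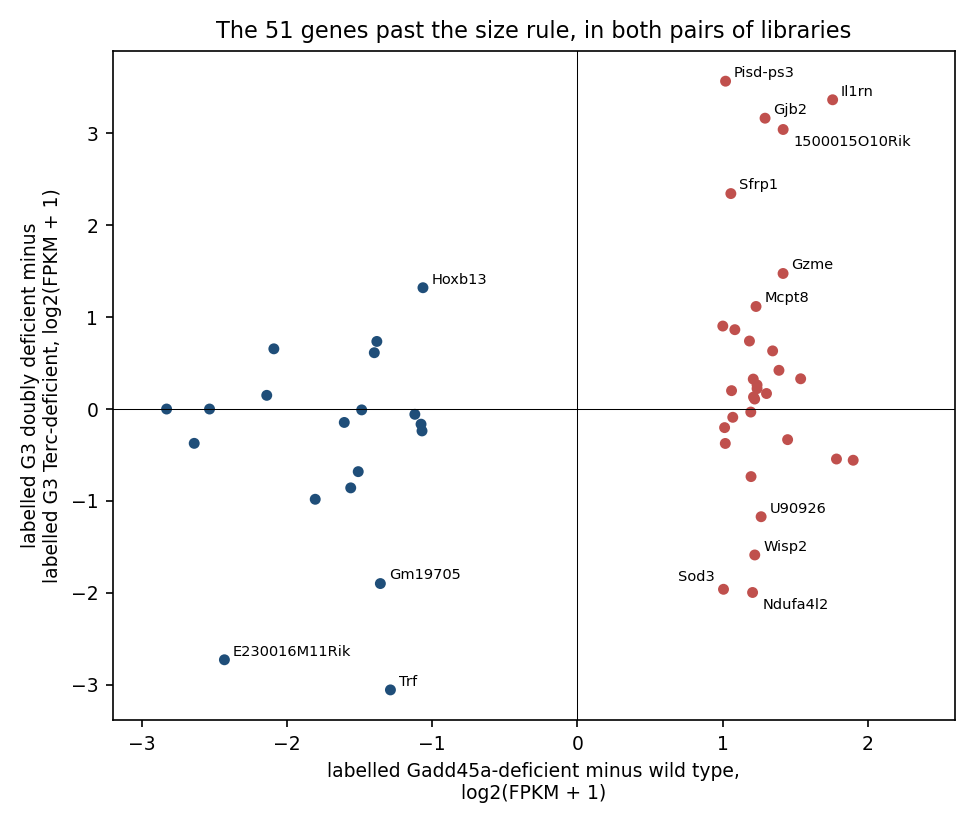
Difference of log2(FPKM + 1) in the Terc-proficient pair (horizontal) against the G3 pair (vertical) for the 51 genes past the size rule in the former, 1 point a gene, red for higher and blue for lower. Named points are the 15 genes past the rule in both pairs, of which 10 lie in the lower left or upper right quadrant and 5 in the others.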

How the data were processed

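Per the labels' protocols, DNase-treated RNA was enriched for poly(A) on oligo(dT) beads, then sheared and primed with random hexamers. Each deposited table holds 1 FPKM value a symbol, a unit given by the tables' names. TopHat2 2.1.1, Cufflinks 2.2.1 and the build mm9 are named in the submitters' processing notes, without roles. The annotation, strand setting and filters are not given in the sources used here. The scaling is to mapped fragments. How fragments shared by gene copies were treated is not given either, so values of copied, overlapping and antisense genes are uncertain.

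Tables were joined on symbol with Python 3.11.15, pandas 2.3.3 and numpy 2.4.6, and figures drawn with matplotlib 3.10.9. From 23235 symbols, 744 of short RNA, 954 on X or Y and 9 LOC symbols at 0 in one library were left out, and 10877 with a mean of 1 FPKM or more were kept. Chromosomes, synonyms and gene order came from RefSeq and GENCODE annotation of GRCm38, which matched 22993 symbols (99.0%). Because that build differs from mm9, no coordinates were used with the files, and printed windows belong to GRCm38.p6. Differences used a pseudocount of 1 FPKM and a size rule of 1. The calculation was checked on simulated libraries. Depth was estimated from FPKM up to 0.05, which lie near whole multiples of 1 fragment. Between 75% and 78.9% of these lay within 0.1 of a whole fragment, and fragment counts in the text use full transcript lengths.

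Groups came from the genotype labels. Named genes were Gadd45a, Gadd45b, Gadd45g, Terc and Tert, the 15 largest differences each way, the 10 largest each way among genes of 20 FPKM or more, up to 4 members a list, and all measured posterior Hox and Ifi200 genes. Other named genes were chosen after their values were seen. Some results that this rule selects are left out of the text. The members, the 34 gene lists and the 15 marker lists were chosen with earlier results of these data known. Alternatives were other pseudocounts, level filters and scalings, and the handling of zeros, of X and Y genes and of unmatched symbols.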

Additional observations from a re-analysis of the deposited data

Results flagged for a closer look

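Genes on the sex chromosomes were left out of the comparison by its rule. Y-linked genes nevertheless gave a signal in the library labelled Gadd45-/-: Ddx3y at 16.4 FPKM, Eif2s3y at 23.1 FPKM, Kdm5d at 4.34 FPKM and Uty at 3.21 FPKM. In wild type each of these was at 0.033 FPKM or less, and Uty was listed at 0.

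For 5 genes the difference went in opposite directions in the Terc-proficient pair and in the G3 pair, past the size rule in both. The difference between the pairs was not tested, since there was 1 library on each side. Hoxb13 had -1.06 in the Terc-proficient pair and 1.32 in the G3 pair. The superoxide dismutase Sod3 had 1.01 and -1.96, and the CCN family gene Wisp2 had 1.22 and -1.59. U90926 had 1.27 and -1.17. Ndufa4l2, a mitochondrial protein gene induced by hypoxia and named after its values were seen, had 1.21 and -1.996.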

How the results depend on the processing

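No paired analysis was possible because each genotype had 1 library, and leaving out a replicate was not possible for the same reason. The counts of 32 higher and 19 lower genes depended most on how low values were treated. A pseudocount of 0.1 FPKM gave 80 higher and 39 lower genes, one of 0.5 FPKM gave 51 higher, and a filter at a mean of 5 FPKM left 19 higher and 3 lower. With the median-of-ratios size factors, which shift the median of all genes by under 0.1, the counts were 36 and 19, and quantile normalization gave 34 and 20. All 32 and 19 genes remained under each alternative except the filter at 5 FPKM and leaving out genes at 0 in one library, which kept 17 of the lower genes. With the pseudocount of 0.1 FPKM, 4 of 42 list medians moved: the Ifi200 family to -0.77, hepatocyte markers to -2.80, epithelial markers to -1.36 and mesothelial markers to -0.63. Values near 0 changed sign with that pseudocount or a scaling in 4 list medians (NF-kB feedback, endoplasmic reticulum chaperones, regional factors and neuronal markers) and 2 named genes (Hoxd9 and Lpl), all of them within 0.026 of 0 before and after. At the estimated depth, E230016M11Rik rested on about 1.13 fragments in the knockout-labelled library, so its level there was hardly detectable.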

Other observations

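Redox and energy genes were not described above. Of 25 measured genes of the NRF2 and glutathione list, 17 had a positive difference, beside 42.1% of all kept genes. The median was 0.14, and Sod3 was past the size rule. The metal-binding metallothionein Mt2 stood at 79.4 FPKM in wild type and 119 in the knockout-labelled library. Glycolysis and hypoxia genes had 22 positive and 5 negative differences with a median of 0.09. In the G3 pair both lists had negative medians, -0.66 for NRF2 and glutathione and -0.47 for glycolysis and hypoxia. There 22 and 24 of their members were negative. The lactate exporter Slc16a3 stood at 28.04 and 38.7 FPKM, whereas the stress gene Ndrg1 stood at 30.0 and 21.1 FPKM. In the Ifi200 family of DNA sensors, 3 of 8 genes were measured: Ifi202b, Ifi204 at 4.02 and 2.32 FPKM, and Mnda at 3.15 and 4.91 FPKM. These genes are near-identical copies in part, and their values are uncertain.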
